A study of Mus musculus with 5 samples.

Results

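Rlbp1 and Sox9, a pair of genes known from Muller glia, were described in retina of Rb-mutant and wild-type mice. The members were all spots whose only gene symbol in the platform annotation was Rlbp1 or Sox9. This gave 2 of 17328 spots, 1 for each gene, and both spots had a usable ratio on all 5 arrays. The study consisted of 5 dual-colour arrays, each with total RNA of wild-type mice in channel 1 and of mutant mice, given in the labels as Rb-, in channel 2. By the series title the tissue was explanted retina, which is held in organ culture. The 5 arrays form a single group and are numbered 1 to 5 in order of deposition. For the strain, the age, the Rb allele, any Cre driver, the time in culture and any pooling of RNA, nothing is given in the sources used here. Which RNA carried which dye, and whether dyes were swapped, is not stated. Log2 ratios are therefore given with the sign they were deposited with, and no sign is read as higher or lower in the mutant. Whether separate animals were used for the arrays is not stated either, so p-values reflect the spread of these samples alone, and that spread may be technical. Both genes were proposed, and in that sense selected on, with log2 ratios of these same arrays already known.

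Muller glia are the main glial cells of the retina, spanning its whole thickness and supporting its neurons. They arise from the same progenitors as the neurons and are among the last cells of the retina to be formed. Rlbp1 encodes CRALBP, a protein that binds retinaldehyde and retinol and takes part in the recycling of visual pigment, and it is made in Muller glia and in the pigment epithelium. Sox9 encodes a transcription factor with an HMG box that binds DNA. It is active in retinal progenitors and is kept in Muller glia. On assembly GRCm38.p6, RefSeq places Rlbp1 on chromosome 7 from 79374865 to 79392250 and Sox9 on chromosome 11 from 112782210 to 112787757. Which exon or untranslated region each spotted probe covers is not known here.

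Since Sox9 binds DNA and Rlbp1 is a gene of the same glia, the bases before the Rlbp1 start are shown. The window is that of RefSeq on GRCm38.p6 at chr7:79387028-79387277, minus strand, the 250 bases before the start listed there. That start lies inside the gene span given above, whose upstream end is at 79392250, so other listed transcripts may begin elsewhere. Capitals mark a match to ACAAAG on the opposite strand, a motif of SOX and TCF proteins.

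Rlbp1: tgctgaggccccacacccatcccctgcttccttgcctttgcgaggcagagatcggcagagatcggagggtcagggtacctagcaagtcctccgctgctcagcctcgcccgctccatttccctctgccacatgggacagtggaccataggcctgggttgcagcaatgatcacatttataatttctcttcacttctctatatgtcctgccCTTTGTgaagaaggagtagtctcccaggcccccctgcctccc

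The 3 motifs searched on both strands were ACAAT, a core recognised by SOX proteins, ACAAAG, and TAATCC, bound by the photoreceptor factors CRX and OTX2. None of the 3 overlaps another in this window, which held 1 match in all, to ACAAAG. Over 32851 windows of the same length, 16.5% held ACAAAG, 27.7% held ACAAT and 6.3% held TAATCC. The match is a description of letters and not a binding site. For Sox9 no promoter sequence is shown.

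Each array was centred on its median log2 ratio, and the array medians before this were -0.755, -0.025, -0.715, -0.058 and -0.742 on arrays 1 to 5. Usable ratios covered 71.8% to 75.9% of spots. The arrays differed in spread, with a scaled median absolute deviation (MAD) of 1.37, 0.83, 1.31, 0.90 and 0.97 on arrays 1 to 5. Rb1, the targeted gene, had ratios near 0 on the probe measured on all 5 arrays, from -0.23 to 0.20. Its other probe, measured on 4 arrays, ran from -1.33 to 2.06. The allele is not known here, so neither Rb1 probe checks the labels.

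Rlbp1 lay below the array median on every array. Its centred log2 ratio was -1.33, -0.25, -1.14, -0.35 and -0.79 on arrays 1 to 5, with mean -0.77 ± 0.47 (SD, n = 5). The ratios were furthest from 0 on arrays 1 and 3, closest on arrays 2 and 4, and between these on array 5. As linear ratios these are departures of 2.52-fold, 1.19-fold, 2.21-fold, 1.28-fold and 1.73-fold from the array median. A negative ratio on all 5 arrays was found for 759 of 6753 probes measured on all of them (11.2%), and for 566 of the 4420 among these with a single gene symbol (12.8%). Rlbp1 was chosen with results of these arrays known, so its sign is given as a description with no test.

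The place of Rlbp1 among all probes of an array was moderate. Of the probes measured on each array, 13.9%, 35.0%, 17.8%, 34.0% and 17.1% had a lower ratio on arrays 1 to 5. Its mean lay above that of 11.5% of the 6753 probes, and its SD of 0.47 was below their median SD of 0.67. Genes measured on all 5 arrays had medians of -0.39, 0.01, -0.43, 0.13 and -0.27 after centring, where a gene's value is the mean of its probes. Relative to these medians Rlbp1 was at -0.94, -0.26, -0.71, -0.48 and -0.52, still below 0 on each array. Among 3739 genes, 338 (9.04%) were below the all-gene median on all 5 arrays.

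Sox9 lay above the array median on 4 arrays and below it on array 2. Its centred log2 ratio was 1.14, -0.45, 1.18, 0.35 and 0.74 on arrays 1 to 5, with mean 0.59 ± 0.67 (SD, n = 5). The highest values were again on arrays 1 and 3, and array 2 was the only array with the opposite sign. The 192 ACTB control spots had centred medians of 1.09, -2.1, 0.72, -0.3 and 0.05 on arrays 1 to 5. These too were highest on arrays 1 and 3 and lowest on array 2. Whether the Sox9 values share a source with those of the control spots was not tested. Of the probes on each array 76.4%, 28.2%, 78.4%, 66.3% and 72.6% had a lower ratio than Sox9 on arrays 1 to 5. A ratio above 0 on 4 of the 5 arrays was found for 810 of 6753 probes (12%), and this same pattern, negative on array 2 alone, for 206 (3.05%), or 106 of the 4420 with a single gene symbol (2.4%). Relative to the median of all genes Sox9 was at 1.53, -0.45, 1.61, 0.22 and 1.01 on arrays 1 to 5.

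The mean of Sox9 was smaller without centring and turned negative only with scanner factors subtracted, while that of Rlbp1 stayed negative. Without centring Sox9 had deposited values of 0.385, -0.471, 0.464, 0.293 and -0.004, a mean of 0.13. With the scanner software's factors for the ratio of medians subtracted as log2, its mean turned to -0.25, and with them added it was 0.52. Subtracting moves the array medians, all negative, further down on every array except array 4. Rlbp1 had deposited values of -2.089, -0.279, -1.856, -0.412 and -1.53, a mean of -1.23, and means of -1.62 and -0.85 with the factors subtracted and added. With arrays 1 and 3 left out, an alternative chosen after seeing the data, the means were -0.47 for Rlbp1 and 0.21 for Sox9.

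**Figure D1:**
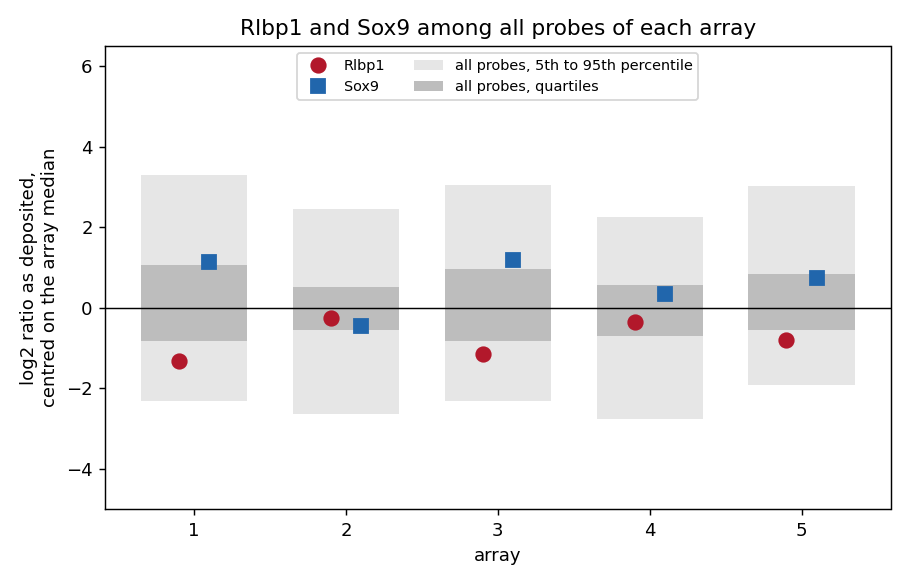
Centred log2 ratio (vertical axis, as deposited, direction between mutant and wild type unknown) of the single Rlbp1 probe (circles) and the single Sox9 probe (squares) on arrays 1 to 5, over grey bars for the 5th to 95th percentile (light) and the quartiles (dark) of all probes. Rlbp1 lies below the lower quartile on arrays 1, 3 and 5, and the pair stands furthest apart on arrays 1 and 3.

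The difference between the members does not depend on centring, since the same array median is taken from both. Rlbp1 minus Sox9 was -2.47, 0.19, -2.32, -0.70 and -1.53 log2 units on arrays 1 to 5, averaging -1.37 ± 1.12 (SD, n = 5). Rlbp1 therefore had the lower ratio on 4 arrays, and on array 2 the members lay close together. The difference shows that the ratios of these 2 probes were unequal, not which of the genes changed. The mean was -0.68 with arrays 1 and 3 left out, and -1.23 with all arrays scaled to 1 spread.

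The size of the Rlbp1 ratio followed the spread of the arrays. The scaled MAD ran, from largest to smallest, over arrays 1, 3, 5, 4 and 2, and the Rlbp1 ratio ran over the same arrays from most to least negative. With arrays scaled to 1 spread Rlbp1 was at -1.05, -0.33, -0.94, -0.42 and -0.87, and Sox9 at 0.89, -0.58, 0.97, 0.42 and 0.82. For Rlbp1 the difference of arrays 2 and 4 from arrays 1 and 3 was smaller after scaling but did not vanish, and that from array 5 hardly changed. For Sox9 array 2 stayed the only negative array, and array 4 stayed below arrays 1, 3 and 5. By scanner focus position, arrays 1, 2 and 3 shared the setting 10 and arrays 4 and 5 the setting 0. Means were -0.91 and -0.57 for Rlbp1 and 0.62 and 0.54 for Sox9 at these settings. The sign for Rlbp1 could not differ, as it was negative on every array. For Sox9 the mean at setting 10 held -0.45 on array 2 beside 1.14 and 1.18 on arrays 1 and 3. The part of spread or scanner setting in these values was not tested.

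Each member rests on a single probe, and probes of the same gene often differed on these arrays. Of 591 genes with several probes on all 5 arrays, the 790 pairs of probes had a median root mean square difference of 0.88 log2 units over the arrays (quartiles 0.57 and 1.44). The means of a pair differed by a median of 0.41, and 62.3% of pairs had means of the same sign. The distance between Rlbp1 and Sox9, 1.70, lay above the upper quartile of these pairs of a single gene. Of 4419 probes of other genes, 88.1% lay nearer to Rlbp1 than Sox9 did. From Sox9, 79.4% lay nearer than Rlbp1 did. The 2 genes were chosen with these ratios known, so the distance is a description with no test.

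Other genes of Muller glia had ratios of both signs, with a median closer to all genes than Rlbp1. Of 52 genes listed, 31 had a spot and 17 were measured on all 5 arrays, Rlbp1 and Sox9 included. Set against all genes, the median of the 15 others was at -0.31, -0.20, -0.17, -0.02 and 0.15 on arrays 1 to 5, averaging -0.11 ± 0.18 (SD, n = 5), closer to 0 than Rlbp1 on every array. Below the all-gene median were 10, 11, 9, 8 and 5 of these 15 on arrays 1 to 5. No probe of the list passed limma's test with Benjamini-Hochberg adjustment, 0 of 26 without the members, and at an unadjusted p under 0.05 there were 1 positive and 1 negative. Over all probes tested, 0 of 10036 passed (0%) and 1146 (11.4%) had an unadjusted p under 0.05, so the list's share was near or below the background. In bulk RNA, fewer cells of a type and less RNA per cell cannot be told apart.

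Glul, the glutamine synthetase by which Muller glia turn glutamate into glutamine, had 5 probes that disagreed. A Glul probe had -1.14, -0.41, -1.23, -0.22 and -1.12 on arrays 1 to 5, a root mean square difference of 0.20 from Rlbp1. Another had -0.47, 0.27, 0.25, 0.27 and 0.65, positive on 4 arrays, and differed from Rlbp1 by 1.04. The remaining pair measured on all 5 arrays had means of -0.11 and -0.41, and the probe measured on 4 arrays 0.78. The first of these probes was thus the only Glul probe negative on every array.

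The carbonic anhydrase genes gave mixed ratios. A Car2 probe had -1.33, -0.52, -0.33, -0.15 and -0.53 on arrays 1 to 5, negative throughout. The second Car2 probe had -1.10, 0.08, -1.18, 0.53 and 0.04, with both signs. Car14, a membrane form of the enzyme, had a mean of -0.01 ± 0.51 (SD, n = 5). Vim, the intermediate filament vimentin, had 0.68, -0.19, 0.21, 0.23 and -0.58, with both signs. Clu, the secreted chaperone clusterin, had a mean of -0.41 ± 0.85, and Dkk3, a secreted Dickkopf family protein, 0.45 ± 2.88 (SD, n = 5 each), the latter running from -3.95 on array 1 to 4.13 on array 4.

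Several defining genes of Muller glia were measured on too few arrays to be set beside Rlbp1. Kcnj10, the potassium channel Kir4.1, was positive on its 4 arrays, with 4.74 on array 5, 3.15 on array 2, 2.36 on array 1 and 0.48 on array 3. Crym and Gpr37 had both signs over 3 arrays each. Slc1a3, Aqp4, Apoe and Gfap were not analysed here. Of the 21 other probes of the list on all 5 arrays, 5 had a positive and 16 a negative mean, and 3 were negative on every array, those of Glul, Car2 and Mfge8, the last named after its values were seen. This is close to the 11.2% of all probes negative on all 5 arrays, and the median of probe means over all 10036 tested was itself below 0, at -0.16. Mfge8 had -1.63, -0.16, -1.48, -0.37 and -0.27 on arrays 1 to 5.

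**Figure D2:**
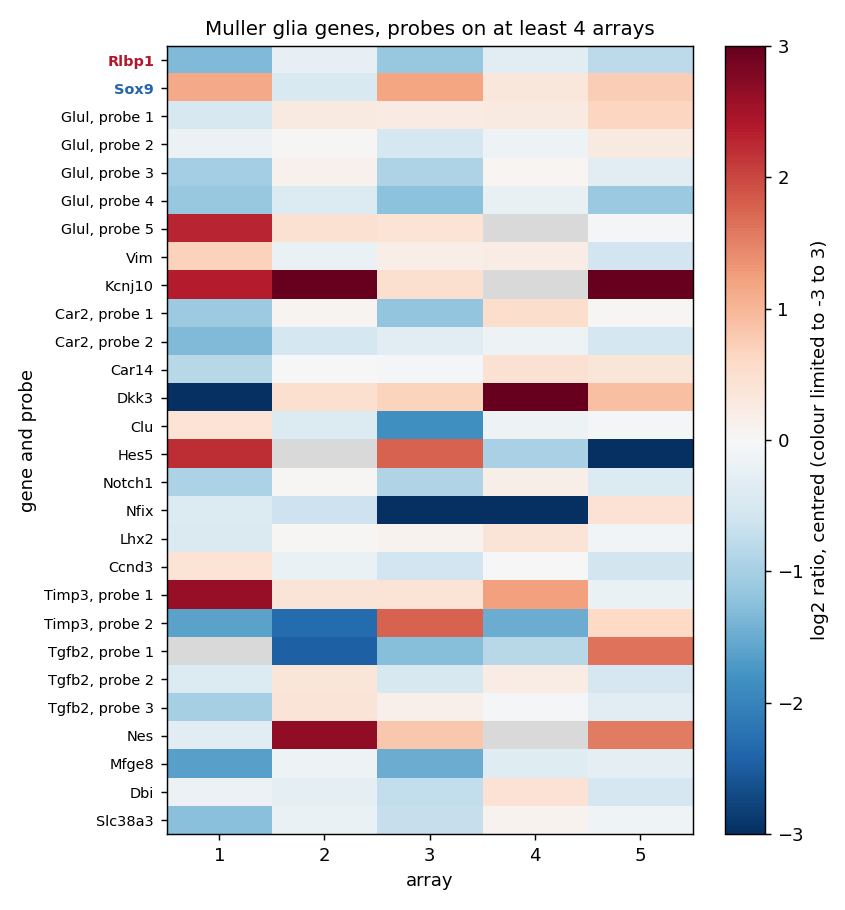
Centred log2 ratio (colour, red above and blue below the array median, limited at -3 and 3) of the Muller glia genes listed (rows, a row for each probe on at least 4 arrays) on arrays 1 to 5 (columns), with missing values in grey. Rlbp1 is blue throughout, Sox9 is red on 4 arrays, and the rows of Glul, Car2 and Timp3 show probes of a single gene that differ.

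Other genes that handle retinoids and were measured on all 5 arrays had means closer to 0 than Rlbp1. Of 44 genes listed for the visual cycle and retinoid transport, 17 had a spot and 5 were measured on all 5 arrays. Set against all genes, the median of the 4 others was at -0.38, 0.32, 0.30, 0.09 and 0.23 on arrays 1 to 5, with Rlbp1 far below it on arrays 3 and 5. Rdh11, a retinol dehydrogenase of photoreceptors, had means of -0.08 ± 0.31 and 0.00 ± 0.60 on its probes (SD, n = 5 each). Aldh1a1, which makes retinoic acid, had -0.78, 0.73, -0.60, 0.75 and -0.07, low on arrays 1 and 3 and high on arrays 2 and 4. Abca4, the retinoid transporter of the outer segment, had -0.85, 0.47, 0.03, 0.16 and 0.13 on the probe measured on all 5 arrays. On fewer arrays the list held means further from 0 than Rlbp1 on both sides. Among those on 4 arrays, an Abca4 probe was at -1.82 and Rdh12 at 1.22, while another Abca4 probe was closer, at 0.24. Dhrs3, a retinaldehyde reductase named after its values were seen, was the other gene negative on every array, from -0.53 to -0.09. Of the list's 14 probes tested with limma without Rlbp1, 0 passed after adjustment, and 1 positive and 0 negative had an unadjusted p under 0.05. Over all 10036 probes these shares were 0% and 11.4%, so the list was near the background.

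Rpe65, the isomerase that defines the pigment epithelium, where Rlbp1 is made too, had -0.99, -0.09, -1.12 and 0.40 on arrays 1, 3, 4 and 5. Its order over these arrays differed from that of Rlbp1, which was less negative on array 4 than on array 5. Of 15 pigment epithelium genes listed, 4 had a spot, and Rlbp1 was the only gene among them measured on all 5 arrays. Dct, an enzyme of melanin synthesis, ran from -3.05 to 2.27 over 4 arrays. The part of pigment epithelium in the Rlbp1 ratio was not tested.

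Rod genes had their large negative ratios on arrays 1 and 3. Set against all genes, the median of 13 rod genes was at -3.06, 0.07, -3.49, -0.53 and 0.16 on arrays 1 to 5. Rlbp1 shared the low values on arrays 1 and 3 at a smaller size, and on array 5, where it was at -0.52 from all genes, the rod list was above 0. The part of rods in the Rlbp1 ratio was not tested. The astrocyte and myelin list was represented by Mbp of myelin (mean 0.05 ± 0.95) and the microglia list by C1qb of complement (0.02 ± 0.51; SD, n = 5 each), and each had both signs.

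Among Sox genes, 8 of 20 had a spot and 5 were measured on all 5 arrays. Sox11, a SoxC factor of newly formed neurons, had 4 probes on all 5 arrays. The Sox11 probe with the largest ratios had 1.32, -0.65, 2.34, 0.77 and 0.82, with the same signs as Sox9 on every array. Another had 0.85, 0.05, 1.22, 0.86 and 0.04, positive on all 5 as were 271 of 6753 probes (4.01%), and the remaining ones had means of 0.14 ± 0.31 and 0.25 ± 0.50 (SD, n = 5 each).

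Other Sox genes differed from Sox9. Sox12, also of the SoxC group, had means of -0.03 ± 1.63 and 0.08 ± 0.37 on its probes, Sox13 of the SoxD group -0.31 ± 0.58 and -0.29 ± 0.72, and Sox17, a SoxF factor of endoderm and vessels, -0.27 ± 1.19 (SD, n = 5 each). Sox2, a factor of progenitors and Muller glia, was measured on only 2 and 3 arrays by its probes. A Sox2 probe had 3.42 on array 1 and 0.74 on array 5. The other had 0.88 on array 1, 1.81 on array 2 and 1.46 on array 4, so every Sox2 value was positive. On array 2 Sox2 and Sox9 had opposite signs. Against all genes, the median of the 4 Sox genes other than Sox9 was at 0.83, -0.01, 0.53, 0.23 and 0.20 on arrays 1 to 5, lower than Sox9 on arrays 1, 3 and 5. Of the 10 Sox probes tested with limma without Sox9, 0 passed after adjustment and 0 had an unadjusted p under 0.05. Over all 10036 probes the shares were 0% and 11.4%, and a list this small is not told apart from them.

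**Figure D3:**
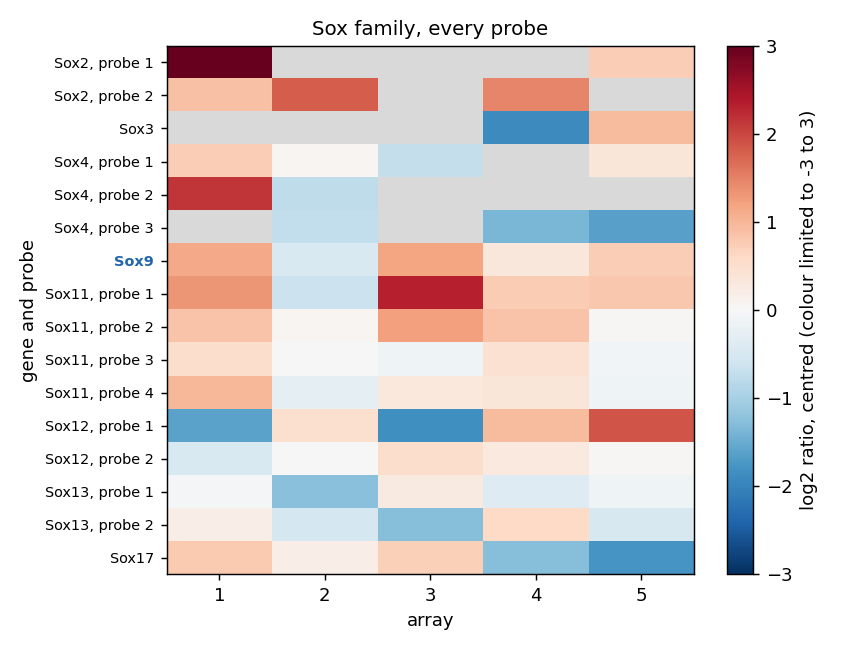
Centred log2 ratio (colour, red above and blue below the array median, limited at -3 and 3) of every probe of the Sox family (rows) on arrays 1 to 5 (columns), with missing values in grey. Sox9 and the first Sox11 probe share their signs on every array, while Sox12 and Sox13 rows hold both signs.

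Progenitor genes had ratios of both signs on arrays 1 and 3, where Sox9 was highest. Against all genes, the median of 8 progenitor genes was at 0.79, -0.08, 1.19, 0.29 and 0.12 on arrays 1 to 5. On arrays 1 to 5, 4, 5, 3, 2 and 3 of the 8 were below the all-gene median. Pcna, the sliding clamp of replication, had 1.21, -0.07, 1.88, 1.20 and 0.34, the same signs as Sox9. Foxn4 had 2.84, -0.09, 2.99, 0.64 and -0.23, high on arrays 1 and 3 but negative on array 5, where Sox9 was positive. Every probe of the cyclin gene Ccnd1 was negative on both of these arrays, from -2.18 to -0.82. Pax6, a transcription factor of progenitors and of amacrine and ganglion cells, had negative means on its 3 probes measured on all 5 arrays, -0.51, -0.55 and -1.51. Lhx2, needed for retinal progenitors and Muller glia, stayed near 0 with a mean of 0.00 ± 0.30 (SD, n = 5). Of the 22 progenitor probes tested with limma, 0 passed after adjustment, and 5 positive and 1 negative had an unadjusted p under 0.05, where all 10036 probes gave 554 positive and 592 negative (11.4% in all). Centring on the probes measured on all 5 arrays moved that split to 775 and 363.

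The Notch pathway, a signal between neighbouring cells that favours glial fate, was close to all genes. Against all genes, the median of 10 genes of the pathway was at 0.05, -0.27, 0.32, 0.06 and 0.18 on arrays 1 to 5. The receptor Notch1 had -0.95, 0.03, -0.91, 0.18 and -0.41 on the probe measured on all 5 arrays, negative where Sox9 was highest. Its other probes, on fewer arrays, differed from this. A Notch1 probe had 1.26 on array 1 and 0.01 on array 5, and another ran from -5.46 on array 3 to 2.48 on array 5. The ligand Jag1 had 1.05, -0.83, 1.13, -0.04 and 0.37 on a probe that was high on arrays 1 and 3, but its other probes on all 5 arrays had means of -1.37 and -0.15. Rbpj, the DNA-binding partner of Notch, had -0.04, 0.91, 0.26, 1.43 and 0.80 on the probe measured on all arrays. Its other probe ran from -2.28 on array 4 to 0.51 on array 5. Hey1, a target of the pathway, had a mean of 0.21 ± 0.63 (SD, n = 5). Of 22 Notch probes tested with limma, 0 passed after adjustment, and 1 positive and 2 negative had an unadjusted p under 0.05, close to the 11.4% of all probes. Of the listed partners and targets of Sox9, 1 of 28 had a spot, Nfia, a factor of gliogenesis, measured on 3 arrays at -1.02, 1.09 and 0.60.

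The probes most like each member were found by the root mean square difference in centred log2 ratio over the 5 arrays, among 4419 probes with a single symbol. For Rlbp1 these were Uchl1, a ubiquitin hydrolase abundant in neurons, Pom121 of the nuclear pore, Vps26b of the retromer, Ap3b2 of the neuronal AP-3 adaptor and Cox4i1 of cytochrome oxidase. They differed from Rlbp1 by 0.10, 0.10, 0.11, 0.12 and 0.13 log2 units. Uchl1 had -1.46, -0.36, -1.06, -0.46 and -0.85 on arrays 1 to 5, negative on all of them, and its other probe had -2.06, -0.27, -1.42, -0.46 and -0.62. None of these 5 genes is on the Muller glia list. The median difference of all probes from Rlbp1 was 0.87, and 59.8% of probes differed by less than 1 log2 unit, so values near those of Rlbp1 were common on these arrays.

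For Sox9 the closest were Sec16a of the sites where vesicles leave the endoplasmic reticulum, Ccna2, the cyclin of S phase and mitosis, the RNA-binding protein Ilf2, the sulfotransferase Chst2 and Paics of purine synthesis. They differed by 0.15, 0.24, 0.24, 0.24 and 0.29, further away than the closest to Rlbp1. Ccna2 had 0.80, -0.12, 1.04, 0.37 and 0.55 on the chosen probe and means of 0.90 and 0.07 on its others. Sec16a had a mean of 0.60 on the chosen probe and -0.73 on the other. The median difference of all probes from Sox9 was 1.29, and 23.6% of probes differed by less than 1. With so many probes and 5 arrays some close matches arise in any case, and nothing is said here of shared function.

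**Figure D4:**
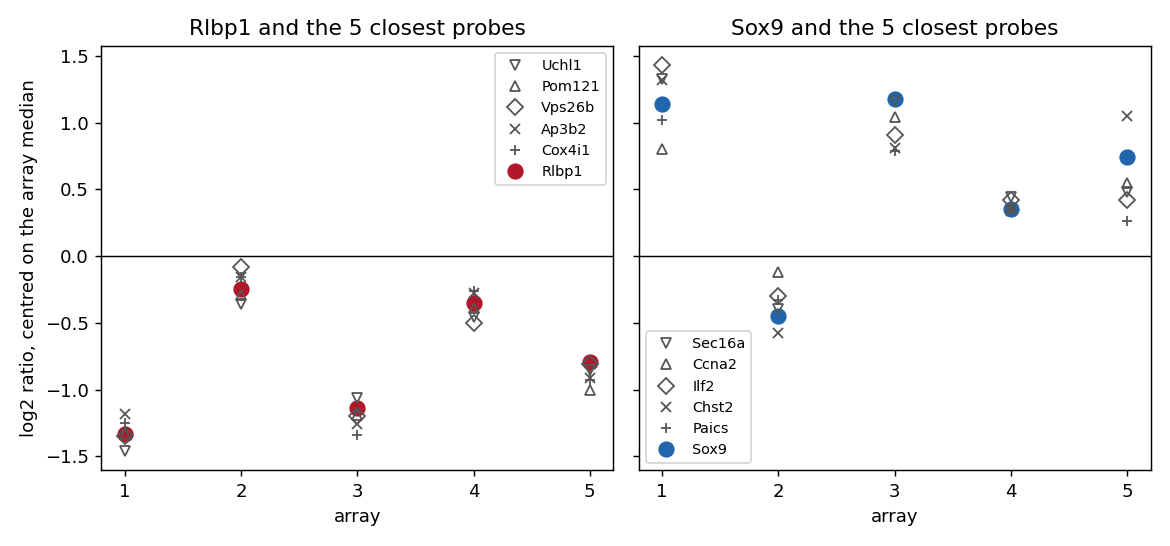
Centred log2 ratio (vertical axis) on arrays 1 to 5 of Rlbp1 (left, filled circles) and Sox9 (right, filled circles), with the 5 probes of other genes closest to each (open and line symbols). The probes near Rlbp1 are below 0 on every array, and those near Sox9 are below 0 on array 2 alone.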

How the data were processed

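Slides were scanned at 635 and 532 nm and read with GenePix Pro 4.1.1.29, which subtracted the local background and applied no normalization, per the labels. The authors deposited log2 ratios, a scale that was read from the values themselves. The sources used here do not say how empty cells arose. The value 16.61, which is log2 of 100000, was taken as a filler and set to missing in 106 to 141 cells per array. Each array was centred on the median of all its usable ratios, the 192 ACTB control spots included. These control spots were then left out of the test and of the counts over probes. Ratios carry no intensity, so a dim spot looks like a bright one. The number of arrays limits the precision.

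The platform annotation gave a single symbol for 7914 spots, several for 353 and none for 9061. Of 7722 single-symbol spots other than ACTB, 7663 had their gene identifier in RefSeq GRCm38.p6. All 10036 probes with 4 or 5 usable ratios were tested against 0 in limma 3.58.1 (R 4.3.3; lmFit, eBayes, Benjamini-Hochberg adjustment, threshold 0.05). On simulated data of 10036 probes with the spread of these arrays, 0%, 25.5% and 79% of 200 probes changed by 1, 2 and 4 log2 units were recovered. The members and gene lists were chosen with earlier results of these data known. The genes named were the members, Rb1, the 5 probes closest to each member, and up to 12 members of each list. In some lists measured members standing earlier were passed over, and no rod gene was named, so list order alone did not set the choice. Alternatives were other centring and scaling, quantile normalization, other filters, the filler kept and arrays left out.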

Additional observations from a re-analysis of the deposited data

How the results depend on the processing

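The mean of Rlbp1 stayed negative in all 13 alternatives, from -1.62 to -0.47, and that of Sox9 stayed positive in 12 of 13, from -0.25 to 0.85. Rlbp1 was negative on every array, centred or as deposited, so leaving arrays out, scaling or not centring could not turn its sign. Sox9 was negative on array 2 alone, and leaving out a single array could not turn its mean. For these alternatives the tally of signs adds nothing to the values by array. Subtracting the factors in the labels moved Rlbp1 to -1.62 and Sox9 to -0.25 and brought 441 probes past the threshold, 12 positive and 429 negative, where each of the 15 other alternatives gave 0. This choice leaves the arrays uncentred, as its construction shows, and the direction of the factors is not stated in the labels. The factors were 1.38, 1.01, 1.6, 0.913 and 1.87 on arrays 1 to 5, and every array median was negative before centring. Subtracting the factors moves the median further below 0 on every array except array 4. The 441 calls are therefore not read as changes. Rlbp1 minus Sox9 stayed negative in all 13 alternatives (-1.76 to -0.68), and the Muller glia list minus all genes in all 15 (-0.17 to -0.02). A shift of a whole array cancels in both differences. The alternatives of centring and factors were therefore bound to leave them unchanged, and only the others could move them. The difference of the members was positive on array 2 alone, at 0.19, so leaving out a single array could move its size but not its sign. With each array left out in turn Rlbp1 ran from -0.90 to -0.63 and Sox9 from 0.45 to 0.85. Each ratio already pairs the 2 RNAs of an array. No paired analysis was possible beyond this because the arrays form a single group. Of 19 results checked for an array far from the others, 0 stood out, where chance would give 0.95 if they were independent. They were not, since they include the probes picked for closeness to a member and the difference of the members.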
